A study of Gallus gallus with 15 samples.

Results

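In the hypothalamus of newly hatched broiler chicks, 42 genes had lower mean levels in both groups of chicks incubated under green light than in dark-incubated chicks, by nearly the same amount in each, while white light left their means close to the dark ones. They were picked by a rule that 6564 of the 24356 genes in the table were counted deeply enough to enter. RNA was counted at its 3′ end by bulk MARS-Seq, a method that tags each molecule with a unique identifier (UMI) before amplification. There were 15 libraries: 4 Control chicks incubated in the dark, 4 White chicks under white light for the whole incubation, 3 Green chicks under green light for the whole incubation, and 4 G3D chicks kept under green light only in the last 3 days before hatching. All were broilers sampled on the day of hatch, and the labels call the Control, White and Green chicks male and leave the sex out of the G3D titles. The study describes its hypothalamus profiles of these groups as coming from male chicks. Each library came from 1 hemisphere of a whole hypothalamus, so it mixes neurons, glia, vessels and membranes, and fewer cells of a type and less RNA per cell cannot be told apart. According to the study, the eggs were assigned to the lighting regimes at random and were incubated in separate trials. The labels do not say which trial a chick came from. Whether trial differed between the lighting groups is therefore unknown, and any part of it cannot be told apart from lighting.

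The genes were chosen from measured values. Each count was expressed as CPM, the count scaled to a library total of 1000000, and put on the scale log2(CPM + 1), and the libraries of a group were averaged. Among the 6564 genes with a mean count of 50 or more, 312 had a Green mean at least 0.5 below Control and 585 had a G3D mean at least 0.5 below Control, with 222 in both sets. Of these 222, 91 had Green and G3D means within 0.15 of each other, and 42 of the 91 also had a White mean within 0.2 of Control. The differences from Control, the likeness of Green to G3D and the likeness of White to Control are therefore what chose the genes, and they are given as a description with no test. Symbols came from the study's own table of changed genes, which named 16 of the 42, listed another 5 without a symbol and did not hold the other 21. The 26 genes without a symbol are called by their Ensembl identifiers.

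The 16 named genes have varied roles, from secretion and sterol synthesis to respiration, signalling and the extracellular matrix. Proteins that leave a cell or sit in its membranes are made at the endoplasmic reticulum, given sugar chains there, and shuttled through the Golgi in coated vesicles. The same membranes build sterols, which the brain makes for itself because cholesterol from the blood does not cross into it in quantity. Proteasomes and acid lysosomes remove worn proteins, mitochondria and peroxisomes burn amino acids and fats, and the hydrogen peroxide that this releases is broken down by catalase. In the hypothalamus these steps serve neurons that secrete peptides, such as somatostatin and galanin, into the blood and to other neurons.

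The libraries held 3944530 to 9501555 counts in all, and between 12270 and 13913 genes with at least 1 count. Most of the 42 genes were sparse: 14 had a mean count under 100 and 32 under 200, their mean levels ran from 7.08 to 2366 CPM, and the median was 18.9 CPM. The highest, the mitochondrial ND1, stood far above the second at 122.2 CPM. Replicate libraries of a group differed by more than counting error, the chi-square divided by its degrees of freedom being 11.7 to 27.6 between pairs. For the sparse genes, down to 9 counts in a library, counting error adds to the spread between chicks. Nothing beyond the replicate numbers shows that the chicks of a group were independent of each other in tray or extraction.

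On the log2(CPM + 1) scale the Green mean was lower than the Control mean by 0.50 to 1.13 over the 42 genes. The G3D mean was lower by 0.50 to 1.03. The median differences were −0.58 for Green and −0.64 for G3D, against 0.01 and 0.04 over all 6564 genes. Between the green regimes the difference of G3D from Green lay between −0.14 and 0.14, with 25 genes lower in G3D and 17 lower in Green. White means ran from −0.19 to 0.20 around the Control means, above them for 25 genes and below for 17. Both green regimes were compared with the same 4 Control libraries, so the differences of Green and of G3D share their reference and are not separate evidence of each other.

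**Figure D1:**
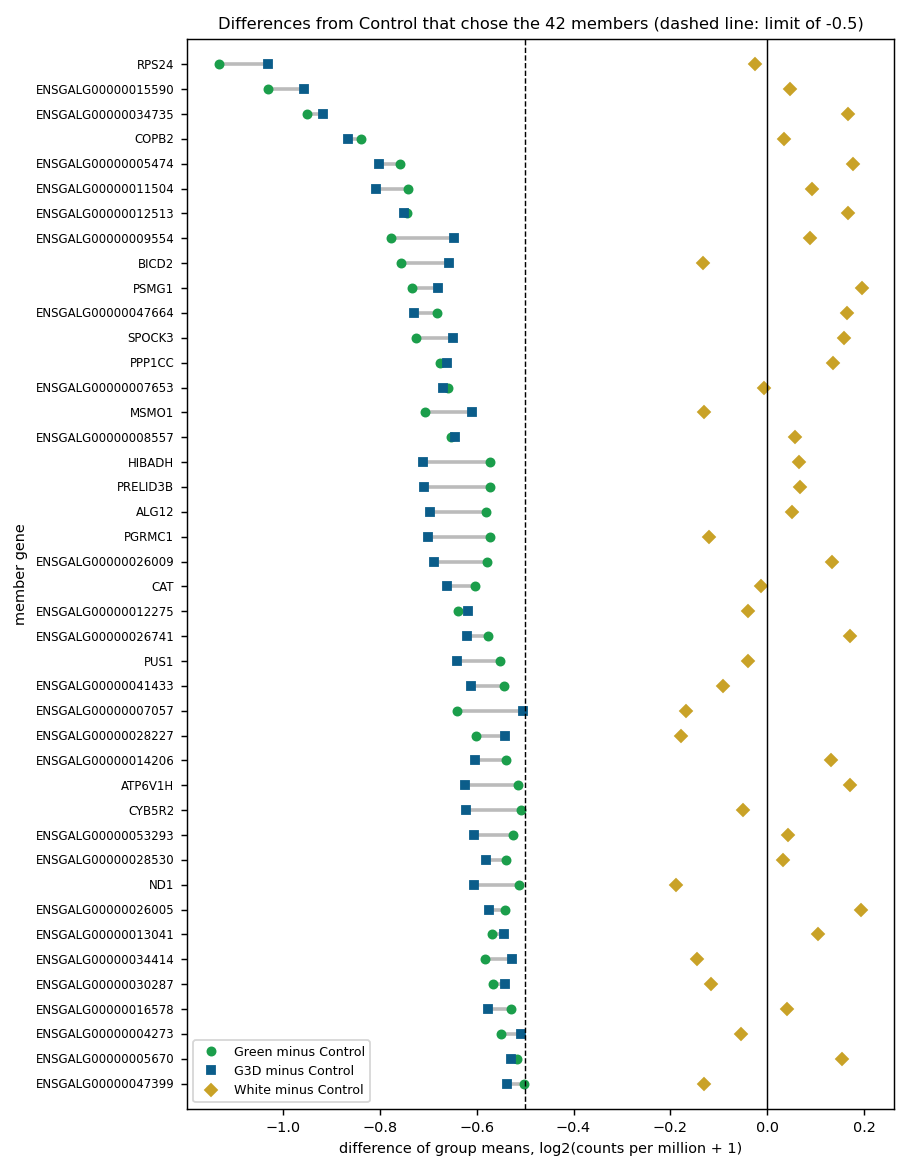
Difference of each group mean from the Control mean on the log2(CPM + 1) scale for the 42 genes, which were chosen on these differences. Green and G3D points lie together between −0.50 and −1.13, and White points lie within 0.20 of 0.

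Many of the genes sat close to the limit that chose them. With both differences at −0.5 or lower required, 17 of the 42 had their smaller difference within 0.05 of the limit, and 20 other genes missed it by 0.05 or less. Just inside were ENSGALG00000047399, with −0.50 in Green and −0.54 in G3D, ENSGALG00000007057, with −0.64 and −0.50, and ENSGALG00000004273, with −0.55 and −0.51. Just outside were ENSGALG00000054271, with −0.52 and −0.497, ENSGALG00000031567, with −0.59 and −0.496, and ENSGALG00000038780, with −0.54 and −0.49. The genes on either side of the limit had nearly the same values, so the number 42 marks a place in a continuous range.

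In the values by library that follow, the order is replicates 4, 5, 6 and 8 for Control, 1, 3, 6 and 7 for White, 2, 7 and 9 for Green, and 1, 5, 6 and 7 for G3D. Levels are in CPM, and means are given ± SD with n = 4, or n = 3 for Green. Fitted log2 changes with their standard errors come from edgeR's quasi-likelihood model over all 15 libraries, and no call is read from those against Control, since that contrast chose the genes.

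Vesicle traffic between Golgi and endoplasmic reticulum was represented by COPB2, which encodes the β′ subunit of the COPI coat that carries proteins back from the Golgi. COPB2 was counted at 59.5, 34.9, 29.3 and 53.6 CPM in Control and at 35.2, 57.9, 31.7 and 56.0 CPM in White. In Green it was at 19.5, 37.8 and 17.1 CPM and in G3D at 23.1, 30.8, 16.4 and 23.4 CPM. The ranges overlapped through Green replicate 7 and G3D replicate 5, which lay above the lowest Control library. Its fitted log2 change was −0.83 (SE 0.31) for Green and −0.92 (SE 0.29) for G3D. BICD2, an adaptor that ties vesicles to the dynein motor, had 32.2, 23.4, 31.0 and 43.1 CPM in Control and 17.0, 49.8, 20.8 and 38.6 CPM in White. It had 13.2, 27.2 and 17.1 CPM in Green and 22.6, 23.9, 16.4 and 16.9 CPM in G3D. White replicates 1 and 6 were as low as green-lit libraries, and the White SD of 15.4 CPM around 31.5 CPM was the widest of the groups for this gene.

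ALG12 encodes a mannosyltransferase that adds sugars to the lipid-linked chain from which N-glycans are made. Its levels were 15.95, 11.2, 11.4 and 15.7 CPM in Control and 11.7, 14.7, 12.4 and 17.3 CPM in White. Green chicks had 6.34, 13.9 and 7.12 CPM and G3D chicks 7.55, 11.0, 6.43 and 7.07 CPM. Every G3D library had less than the lowest Control library, by a narrow margin at replicate 5, whereas Green replicate 7 was as high as Control. The fitted change was −0.57 (SE 0.29) in Green and −0.76 (SE 0.27) in G3D.

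Sterol and membrane redox enzymes gave 3 genes, MSMO1, PGRMC1 and CYB5R2. MSMO1, the oxidase that removes methyl groups from carbon 4 of cholesterol precursors, had 92.9, 67.7, 79.3 and 93.0 CPM in Control. It had 90.0, 106.5, 54.8 and 61.2 CPM in White, 56.9, 54.2 and 41.0 CPM in Green, and 55.7, 45.1, 46.5 and 71.3 CPM in G3D. All Green libraries were below all Control libraries, while G3D replicate 7 exceeded the lowest Control value and White replicates 6 and 7 reached down to the green-lit ones. Mean levels were 83.2 ± 12.2 CPM in Control, 78.1 ± 24.4 in White, 50.7 ± 8.49 in Green and 54.6 ± 12.04 in G3D.

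PGRMC1 is a haem-binding membrane protein that partners cytochrome P450 enzymes, and it was the third most abundant of the 42 genes by mean count. Control libraries had 79.7, 51.7, 90.0 and 116.0 CPM and White libraries 63.3, 108.0, 46.4 and 96.7 CPM. Green libraries had 47.4, 66.8 and 50.01 CPM and G3D libraries 46.3, 55.4, 40.5 and 57.5 CPM. These overlapped with the lower Control and White libraries, and G3D replicate 6 was the lowest of all 15. CYB5R2, which hands electrons from NADH to cytochrome b5, stood at 73.9, 47.3, 63.6 and 75.9 CPM in Control and at 57.4, 51.2, 63.9 and 77.9 CPM in White. It stood at 42.4, 53.5 and 39.5 CPM in Green and at 30.0, 51.6, 40.5 and 46.1 CPM in G3D. For CYB5R2 a single library of each green group, Green replicate 7 and G3D replicate 5, reached past the lowest Control value. Fitted changes were −0.62 (SE 0.27) and −0.77 (SE 0.25) for PGRMC1, and −0.53 (SE 0.20) and −0.65 (SE 0.19) for CYB5R2, in Green and G3D in turn.

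Protein breakdown was represented by PSMG1, a chaperone that assembles the ring of the proteasome, and by ATP6V1H, a subunit of the pump that acidifies lysosomes and secretory vesicles. PSMG1 had 23.2, 27.7, 16.3 and 32.6 CPM in Control and 22.9, 34.02, 22.8 and 33.9 CPM in White. It had 16.8, 11.3 and 14.9 CPM in Green and 16.5, 16.5, 11.9 and 14.5 CPM in G3D. Every White library was above every green-lit one, and Control replicate 6 alone overlapped with them. The fitted changes from Control, −0.79 (SE 0.24) and −0.75 (SE 0.22), left 57.6% and 59.5% of the Control level. ATP6V1H had 80.1, 48.9, 47.0 and 101.1 CPM in Control, 78.9, 80.2, 53.7 and 88.9 CPM in White, 33.6, 60.4 and 47.0 CPM in Green, and 35.0, 65.8, 34.6 and 40.2 CPM in G3D. Its Control libraries split into a high and a low pair, and the green-lit libraries overlapped with the low pair.

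Mitochondria and peroxisomes accounted for HIBADH, PRELID3B, ND1 and CAT. HIBADH, a dehydrogenase of valine breakdown, had 48.1, 38.0, 55.5 and 56.6 CPM in Control and 35.8, 69.2, 44.1 and 63.0 CPM in White. With 30.1, 36.7 and 31.4 CPM in Green and 23.4, 37.7, 25.7 and 33.5 CPM in G3D, all 7 green-lit libraries lay below all 4 Control libraries, the closest by less than 1 CPM. White replicate 1 was the exception among the other libraries, at the level of Green. Fitted changes were −0.60 (SE 0.22) in Green and −0.74 (SE 0.20) in G3D.

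PRELID3B belongs to a family that moves phospholipids between the mitochondrial membranes. Its Control values were 27.8, 17.7, 24.1 and 37.3 CPM and its White values 19.8, 40.0, 17.0 and 39.6 CPM. Green libraries had 13.9, 23.0 and 15.4 CPM, and G3D libraries 11.7, 31.2, 14.1 and 10.8 CPM. G3D replicate 5 stood higher than 3 of the 4 Control libraries. The fitted changes had wide standard errors, 0.38 for −0.61 in Green and 0.35 for −0.66 in G3D.

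ND1, a subunit of respiratory complex I encoded by mitochondrial DNA, was the most abundant, with 4901 to 35960 counts a library. Control chicks had 3799, 3182, 1986 and 2741 CPM and White chicks 2160, 2744, 2538 and 2590 CPM. Green chicks had 1906, 2029 and 2058 CPM and G3D chicks 2014, 2188, 1168 and 2388 CPM. The 3 Green libraries were close together at 1998 ± 80.8 CPM, but Control replicate 6 was as low as they were, and the Control SD was 763.1 CPM. Beside ND1, 3 other complex I subunits encoded by mitochondrial DNA carried a name, a set looked up after the values of ND1 were seen. Their fitted log2 changes were −0.81 and −0.98 for MT-ND2, −0.31 and −0.66 for MT-ND3, and −0.84 and −1.12 for MT-ND4, in Green and G3D. With ND1 included, the 4 subunits had changes of −0.32 to −0.00 in White against Control, with a median of −0.22. In Green against White the changes ran from −0.81 to −0.03. By edgeR 0 of these 4 genes passed an adjusted p of 0.05 against Control. Under an unadjusted p of 0.05 there were 3 in Green, beside 3.58% of all genes, and 4 in G3D, beside 8.82%. DESeq2 called 0 of them lower in Green, beside 0.0972% of all genes, and 3 lower in G3D, beside 1.72%. Names came only from the study's table of changed genes, so these counts and the shared direction are not independent evidence.

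CAT encodes catalase, the peroxisomal enzyme that splits hydrogen peroxide. It was counted at 23.9, 18.7, 15.99 and 30.1 CPM in Control, 17.6, 29.1, 18.3 and 22.2 CPM in White, 12.6, 16.2 and 13.1 CPM in Green, and 13.7, 19.9, 9.77 and 11.5 CPM in G3D. Only Green replicate 7 and G3D replicate 5 of the green-lit libraries reached the lowest Control level. Mean levels were 22.2 ± 6.22 CPM in Control, 21.8 ± 5.29 in White, 13.9 ± 1.97 in Green and 13.7 ± 4.43 in G3D.

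RNA-handling genes were RPS24, a protein of the small ribosomal subunit, and PUS1, which converts uridine to pseudouridine in transfer RNA. RPS24 had the lowest mean differences of the named genes: 22.8, 15.6, 14.7 and 9.72 CPM in Control and 9.10, 19.0, 14.7 and 18.4 CPM in White, against 11.5, 8.84 and 2.20 CPM in Green and 5.84, 5.64, 8.10 and 8.19 CPM in G3D. Every G3D library was below every Control library, while Green replicate 2 was above Control replicate 8. The lowest value, in Green replicate 9, rested on 13 counts. The identifier that carries this symbol was thinly counted for a ribosomal protein: in 3′ counts, which do not grow with transcript length, RPS3 had a Control mean of 1012 CPM, and whether RPS24 reads were shared with a near-identical copy cannot be seen in the table. PUS1 fell outside the rule for showing all libraries and was picked after its values were seen. It had 33.1, 32.4, 34.1 and 35.6 CPM in Control, 31.0, 40.1, 30.4 and 30.7 CPM in White, 28.03, 26.7 and 15.6 CPM in Green, and 16.1, 24.2, 23.8 and 22.1 CPM in G3D. Its Control libraries were the tightest of the named genes, 33.8 ± 1.39 CPM, and every green-lit library was below every other one.

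Signalling and the extracellular matrix were represented by PPP1CC, a catalytic subunit of protein phosphatase 1, and SPOCK3, a secreted proteoglycan of brain matrix. PPP1CC had 32.9, 21.6, 14.5 and 32.1 CPM in Control, 20.2, 43.5, 15.0 and 37.0 CPM in White, 8.53, 24.4 and 14.9 CPM in Green, and 10.5, 23.8, 11.2 and 16.9 CPM in G3D. The groups overlapped widely, and its fitted changes, −0.67 (SE 0.41) and −0.69 (SE 0.38), were less than 2 standard errors. SPOCK3 had 39.6, 23.3, 23.2 and 37.2 CPM in Control, 33.2, 41.6, 24.8 and 36.6 CPM in White, 16.2, 24.2 and 14.1 CPM in Green, and 18.8, 33.3, 12.6 and 15.3 CPM in G3D. Except for Green replicate 7 and G3D replicate 5, the green-lit libraries were below all others. SPOCK3 and MSMO1 lie near each other on 1 chromosome of the RefSeq annotation of GRCg7b, with 4 protein-coding genes between them. They were the closest neighbours among the 16 named genes.

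Most of the genes, 26 of the 42, had no symbol. ENSGALG00000013041 was the most abundant of them and the second of all 42, with 164.7, 150.1, 126.1 and 115.6 CPM in Control, 134.5, 161.9, 185.8 and 119.5 CPM in White, 96.9, 129.0 and 63.4 CPM in Green, and 73.8, 100.3, 83.4 and 127.6 CPM in G3D. A single library of each green group, Green replicate 7 and G3D replicate 7, reached the Control range. The clearest separation among the unnamed genes, a choice made after their values were seen, was in ENSGALG00000034735, ENSGALG00000015590 and ENSGALG00000047664. ENSGALG00000034735 stood at 52.0, 27.2, 28.8 and 44.7 CPM in Control and 46.7, 54.7, 31.7 and 36.1 CPM in White, against 15.0, 17.1 and 24.8 CPM in Green and 22.4, 21.2, 15.0 and 18.2 CPM in G3D. Its fitted changes were −1.02 (SE 0.25) and −0.99 (SE 0.23), which left 49.4% and 50.2% of the Control level. ENSGALG00000015590 stood at 9.61, 7.47, 10.2 and 12.7 CPM in Control, 8.31, 14.6, 7.86 and 11.3 CPM in White, 3.78, 5.85 and 3.56 CPM in Green, and 3.99, 7.14, 4.29 and 3.53 CPM in G3D. The gap between the highest green-lit and the lowest other library was under 1 CPM, and its counts were low, 18 to 98 a library. ENSGALG00000047664 stood at 25.5, 19.4, 20.1 and 37.6 CPM in Control, 23.3, 37.1, 20.3 and 34.2 CPM in White, 15.5, 16.1 and 13.7 CPM in Green, and 11.96, 18.8, 13.1 and 15.1 CPM in G3D. What these 3 genes encode was not annotated in the sources used here.

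For 4 of the 42 genes, these 3 and PUS1, all 7 green-lit libraries were below all 8 Control and White libraries, as they were for 0.564% of the 6564 genes. Without G3D replicate 5 the number was 8, and without Control replicate 6 it was 7. A library less makes such a gap easier for any gene, and the share over the 6564 genes was not taken again, so these rises cannot be judged. All Green libraries were below all Control libraries for 12 of the 42, where the share over the 6564 genes was 3.75%. Every G3D library was below every Control library for 12 as well, with a share of 3.5%. The 2 sets had 6 genes in common, and 24 of the 42 had an overlap in both contrasts. Since the genes were chosen for lower means in these contrasts, nothing is read from these counts beyond the fact that most of the 42 had at least 1 green-lit library inside the Control range.

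Across the 42 genes the deviation of each library from a gene's own mean was averaged. Control libraries averaged 0.30 ± 0.24 (SD, n = 4) on the log2 scale and White libraries 0.33 ± 0.25 (SD, n = 4). Green libraries averaged −0.35 ± 0.20 (SD, n = 3) and G3D libraries −0.36 ± 0.26 (SD, n = 4). Within Control, replicates 4 and 8 were high, at 0.49 and 0.52, and replicates 5 and 6 lower, at 0.10 and 0.08. White divided likewise, with replicates 3 and 7 at 0.59 and 0.49 and replicates 1 and 6 at 0.16 and 0.07. Green replicate 7, at −0.13, was nearer to Control than Green replicates 2 and 9, at −0.40 and −0.51. G3D replicates 1, 6 and 7 were at −0.48, −0.59 and −0.39, and G3D replicate 5 was near the middle, at 0.00051. The groups were chosen apart on these genes. The rule did not use the spread of the single libraries, but it used means of these same libraries, so the spread is not independent of it. That spread left G3D replicate 5 closer to the lower Control and White libraries than to the other G3D libraries.

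**Figure D2:**
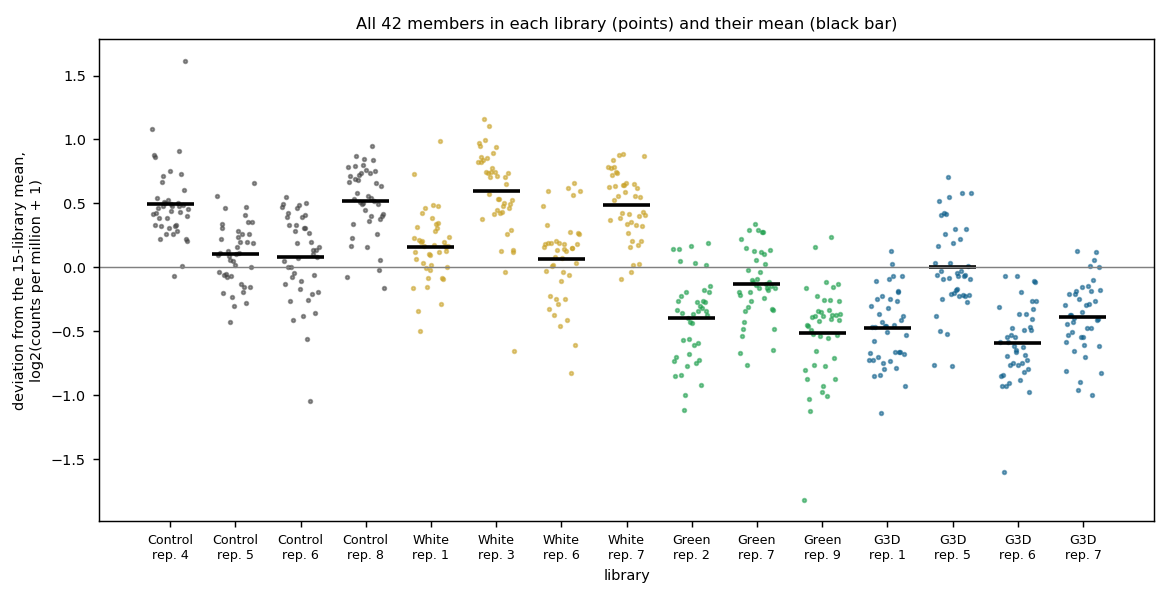
Mean deviation of the 42 genes in each library, in log2 units. Control and White libraries lie between 0.07 and 0.59, Green libraries between −0.51 and −0.13, and G3D libraries between −0.59 and 0.00051.

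The lowest of the 15 libraries was green-lit for 40 genes and the highest was a Control or White library for all 42. The rule chose genes with low Green and G3D means, so the counts of low and high libraries here are a description only. G3D replicate 6 was below the gene's own mean for 42 of 42 genes, and G3D replicate 5 for 25. The lowest value was found most often in Green replicate 9 and G3D replicate 6, for 11 genes each, or 26.2% of the 42. Over all genes counted deeply enough to enter the rule, Green replicate 9 was lowest for 5.03% and G3D replicate 6 for 9.49%. White replicate 3 held the highest value for 16 genes and Control replicate 8 for 12. In each of the 4 groups the shallowest library had the lowest mean deviation of its group. These were Control replicate 6 with 6066732 counts, White replicate 6 with 3944530, Green replicate 9 with 5898618 and G3D replicate 6 with 4196251. The deepest G3D library, replicate 5 with 7979031 counts, was the highest of its group. In Control, White and Green the deepest library was not the highest. These were Control replicate 5 with 9501555 counts, at 0.10, White replicate 7 with 8077895, at 0.49, and Green replicate 2 with 8205918, at −0.40. The part of depth in these deviations was not tested.

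The genes also moved together between chicks of the same group. After group means were removed, the median correlation over the 861 pairs of the 42 genes was 0.35, and it was 0.019 over pairs of the 6564 genes. The correlation was above 0 for 87.2% of the pairs, against 52.1% over the 6564 genes, and above 0.5 for 32.6%, against 7.75%. These are descriptions over 15 libraries with 11 residual degrees of freedom, in which all genes share the same libraries and totals. The 42 were chosen on group means of these same libraries, and the 6564 were not. Any variation shared between genes that fell unevenly over the groups would enter that choice. A higher correlation among the 42 can therefore follow from the choice, and nothing is read from it. CAT had the highest median correlation with the others, 0.61, followed by SPOCK3 with 0.57 and PRELID3B with 0.56. COPB2 and ATP6V1H were both at 0.54. Some genes hardly shared this variation: RPS24 and ENSGALG00000013041 were at 0.12, ENSGALG00000004273 at 0.02 and ENSGALG00000047399 at −0.00. Within groups, the median SD was 0.36 for the 42 genes and 0.26 for the 6564, and it ran from 0.22 in ENSGALG00000016578 to 0.77 in ENSGALG00000053293.

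**Figure D3:**
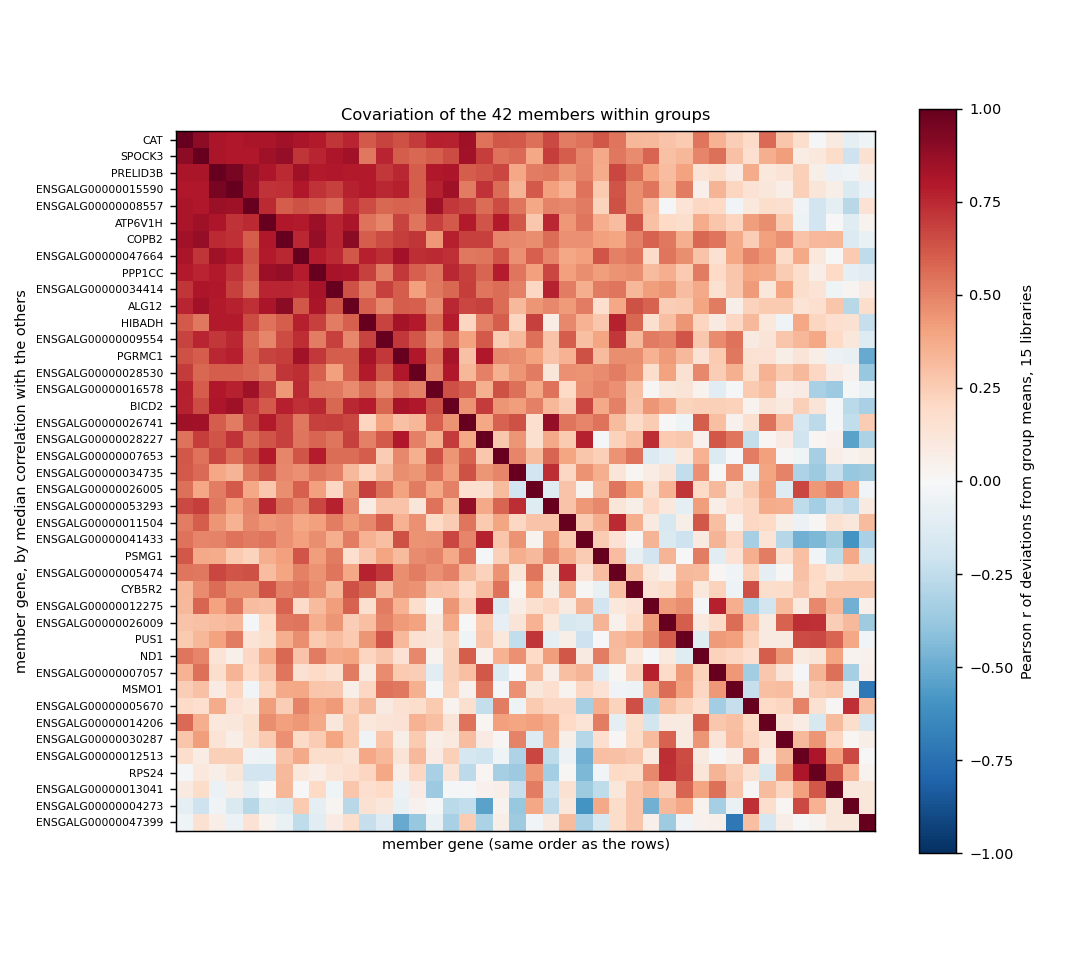
Pairwise correlations of the 42 genes over 15 libraries after group means were removed. Most of the 861 pairs are positive, with a median of 0.35, and RPS24, ENSGALG00000004273 and ENSGALG00000047399 are among the few that share little with the rest.

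The edgeR fit placed the median of the 42 genes at −0.65 for Green and −0.67 for G3D against Control, where the medians of all 10475 genes tested were both −0.01. By edgeR with Benjamini-Hochberg adjustment over all 10475 genes, 0 of the 42 passed an adjusted p of 0.05 in Green against Control, where 0% of all genes were called lower. Under an unadjusted p of 0.05 there were 29, beside a share of 3.58% of all genes, and DESeq2 called 1, ENSGALG00000034735, beside 0.0972%. In G3D against Control edgeR called 0, beside 0.0668% of all genes, with 33 under an unadjusted p of 0.05 beside 8.82%. DESeq2 called 10 of the 42 there, beside 1.72%: RPS24, COPB2, PSMG1, HIBADH, PUS1, CYB5R2, ENSGALG00000015590, ENSGALG00000034735, ENSGALG00000047664 and ENSGALG00000016578. Without G3D replicate 5, edgeR called 8 in G3D against Control, where the share of all genes called lower was 1.71%. As these contrasts chose the genes, the counts describe how far single genes stood from their spread and support nothing about the set.

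The contrasts with White were held in direction by the rule, which kept White near Control. The fitted median of the 42 was −0.62 for Green and −0.66 for G3D against White. EdgeR called 0 of the 42 lower in Green against White, beside 0.172% of all genes, with 20 under an unadjusted p of 0.05 beside 7.08%, and DESeq2 called 4 beside 1.4%. In G3D against White, edgeR called 6, beside 2.49% of all genes, and DESeq2 called 13, beside 5.98%. The 6 were PSMG1, with a log2 change of −0.85 (SE 0.22, edgeR adjusted p = 0.037), HIBADH, with −0.74 (SE 0.20, edgeR adjusted p = 0.0457), and ENSGALG00000034735, ENSGALG00000047664, ENSGALG00000005474 and ENSGALG00000012513. That count rested on single libraries, and calls over all genes moved as well. It was 0 without White replicate 3, White replicate 7, G3D replicate 1 or G3D replicate 6, where 0.387%, 0.282%, 0.271% and 0.343% of all genes were called lower. It was 1 without G3D replicate 7, beside 1.9%, 3 without Green replicate 7, beside 2.11%, and 17 without G3D replicate 5, beside 6.47%. No calls are given between White and Control or between G3D and Green, since the rule itself held those differences small. The fitted medians there were −0.05 and −0.02.

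Other genes of the same pathways were looked up by symbol, and those named below passed an adjusted p of 0.05 unless stated. Since symbols were known only for the 568 identifiers of the study's table of changed genes, each list holds only genes that the study had already picked on these libraries, and its counts are not independent evidence. In the 12 pathway lists, 49 genes had an identifier, 13 of them among the 42. Of the other 36, by edgeR 0 passed an adjusted p of 0.05 in either direction in Green or in G3D against Control. Under an unadjusted p of 0.05, 13 were lower and 3 higher in Green, and 21 lower and 12 higher in G3D. Of all 10475 genes, 750 were under that p in Green, 375 of them lower, and 1637 in G3D, 924 of them lower. DESeq2 called 0 of the 36 in Green, beside 0.0972% of all genes lower and 0.14% higher. It called 3 lower and 3 higher in G3D, beside 1.72% lower and 0.993% higher. The median log2 change of the 36 was −0.33 in Green and −0.47 in G3D, where that of all genes tested was −0.01 in both. In G3D against White, 8 of the 36 passed lower and 9 higher by edgeR, where 2.49% of all genes were called lower and 1.68% higher. Of these 17 genes, 0 were still called without White replicate 7, 1 without White replicate 3, 1 without G3D replicate 1, 2 without G3D replicate 6 and 11 without G3D replicate 7, and 5 with a replicate block. The calls in that contrast named in the next paragraphs rest on those libraries.

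Among genes of traffic between endoplasmic reticulum and Golgi, 5 of 44 symbols had an identifier, 4 with a lower mean in both green regimes. The cargo receptor TMED2 fell in G3D against White, from a mean of 104.9 to 61.5 CPM (log2 change −0.70, SE 0.18, edgeR adjusted p = 0.0349). All 4 vesicle-fusion genes with an identifier, of 27 symbols, had lower means in both green regimes than in Control and none was among the 42. In this list SNAP29, a SNARE that acts in the fusion of autophagosomes with lysosomes, and TMEM230, a synaptic vesicle protein, passed in G3D against White, with log2 changes of −1.07 (SE 0.26, edgeR adjusted p = 0.029) and −0.93 (SE 0.24, edgeR adjusted p = 0.0359).

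For sterol synthesis 7 of 29 symbols had an identifier. Of these, 5 had fitted log2 changes between −0.53 and −0.99 against Control. SC5D, named here after its values were seen, was near 0, at −0.01 in Green and −0.00 in G3D. DHCR7, which makes cholesterol from its last precursor, fell in G3D against White (log2 change −0.87, SE 0.23, edgeR adjusted p = 0.0418). SC5D, the desaturase that acts just before DHCR7, was higher in G3D than in White (0.41, SE 0.11, edgeR adjusted p = 0.0363). All 7 genes had lower fitted means in White than in Control, with a median log2 change of −0.19 and a lowest of −0.49. For the proton pump, 3 of 18 symbols had an identifier, and its catalytic subunit ATP6V1A fell in G3D against White (−1.17, SE 0.24, edgeR adjusted p = 0.0181). The list was mixed in G3D against Control, with 2 genes lower and 1 higher, from −0.95 to 0.40. Of 4 proteasome genes among 42 symbols, the assembly factor PSMG3 was higher in G3D than in White (0.63, SE 0.16, edgeR adjusted p = 0.0292). White was the group apart for PSMG3: its means were 122.9 CPM in Control, 80.4 in White, 121.2 in Green and 119.1 in G3D. RPN2, a part of the enzyme that attaches N-glycans, fell in G3D against White too (−1.03, SE 0.24, edgeR adjusted p = 0.026), and ALG12 was the only gene of its list among the 42. Of the 4 genes of that list with an identifier, 3 were lower and 1 higher in G3D against Control, from −0.76 to 0.31.

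Most of the ribosomal proteins with a name did not share the direction of RPS24. Of 30 small-subunit symbols 10 had an identifier, and 8 of these had higher fitted means in both green regimes than in Control, with a list median of 0.17 in Green and 0.34 in G3D. RPS7, shown because it was the other exception, had the lowest change of the list, −1.32 (SE 0.88) in Green and −2.81 (SE 0.90) in G3D against Control. Its means were 24.6 ± 13.95 CPM in Control, 36.7 ± 15.99 in White, 9.63 ± 9.78 in Green and 3.68 ± 4.76 in G3D, and neither change passed an adjusted p of 0.05 by edgeR. In G3D against White, 7 passed higher by edgeR, among them RPS19 (0.72, SE 0.14, edgeR adjusted p = 0.017) and RPS3 (0.43, SE 0.09, edgeR adjusted p = 0.0205). In the list of mitochondrial matrix and import proteins, 4 of 22 had an identifier and HIBADH and PRELID3B were 2 of them. Against Control 3 of these 4 were lower and 1 higher in each green regime, reaching 0.37 in Green and 0.28 in G3D. The lists of phosphatases and cell cycle kinases, with 4 of 21, and of antioxidant enzymes, with 1 of 21, added PPP1CC and CAT to the 42. The SGK and PI3K list, with 2 of 26, and the Eph receptor list, with 1 of 21, added none, and SGK1 and EPHA7 passed lower in G3D against White (−1.07, SE 0.28, edgeR adjusted p = 0.0374, and −1.48, SE 0.35, edgeR adjusted p = 0.0244).

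Markers of cell types were as thinly named as the pathways. The neuronal genes SNAP25, STMN2 and GAD2, 3 of 11 markers, summed to 2472 to 3103 CPM in Control, 2949 to 3593 in White, 2802 to 3425 in Green and 2773 to 3985 in G3D, so neuronal RNA was present in every library and the ranges overlapped. The sum followed the abundant STMN2, and the 3 genes went different ways in G3D against Control. The fitted log2 changes were 0.34 (SE 0.16) for STMN2, −0.41 (SE 0.17) for SNAP25 and −0.93 (SE 0.27) for GAD2, which makes the transmitter GABA. By edgeR 0 of the 3 passed an adjusted p of 0.05 and all 3 were under an unadjusted p of 0.05, and DESeq2 called GAD2 lower. SNAP25 and GAD2 thus had lower means together with the 42 genes. The peptides SST, GAL, AGRP and VIP, 4 of 16, summed to 699 to 974 CPM in Control and 833 to 1336 in White, and to 1194 to 1246 in Green and 1360 to 1579 in G3D. Their sum was higher in every G3D library than in any other, opposite to the lower G3D means of the 42 genes. All 4 peptides also had higher fitted means in White than in Control, with a median log2 change of 0.98, whereas the 42 were held near Control there. Markers too were named only where the study's table of changed genes held them, so their directions are not independent evidence. VIM, taken here as a marker of astrocytes and radial glia and 1 of 8, was at 155 to 177 CPM in Control and 183 to 214 in White. It was at 180 to 249 CPM in Green and 191 to 392 in G3D. Its fitted log2 change in G3D against Control was 0.67, called higher by DESeq2 and not by edgeR. COL1A2, a collagen of meninges and fibroblasts and 1 of 6 markers, was at 27.0 to 40.5 CPM in Control, 30.5 to 36.4 in White, 35.8 to 61.2 in Green and 50.8 to 90.0 in G3D, and rose in G3D against Control (log2 change 1.09, SE 0.19, edgeR adjusted p = 0.0249). That call was lost without any 1 of the 4 Control libraries and without G3D replicate 7, the adjusted p reaching 0.0666. The peptide sum, VIM and COL1A2 reached their highest values in G3D and SNAP25 and GAD2 had their lowest means there, and the part of these markers in the lower levels of the 42 genes was not tested. Oligodendrocytes, microglia, vessels, ependyma, blood, pituitary and retina had no marker with an identifier and were not examined.

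The choice of genes leaned on single chicks. When the rule was applied again with each library left out in turn, between 24 genes, without Control replicate 8, and 72 genes, without Control replicate 6, met it. The highest number shared with the 42 was 36, without Control replicate 6, and the lowest was 17, without Control replicate 8. No gene was kept in all 15 settings and the median gene was kept in 9. PUS1 was kept in 14, CAT in 13 and ENSGALG00000011504 in 12, and the other 39 in fewer. ND1 was kept in 5 and ENSGALG00000053293 in 2. These numbers say how often a gene passed the limits, not how steady its level was: with a library left out, the fitted change of ENSGALG00000011504 in G3D against Control ran from −1.15 to −0.39, and that of HIBADH, kept in 10, from −0.87 to −0.63. ENSGALG00000030287, kept in 9, had 42.9 CPM in Control replicate 4, where the Control mean was 19.7 ± 15.5 CPM (SD, n = 4). Without that library its fitted change against Control moved from −0.85 to −0.12 in both green regimes.

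**Figure D4:**
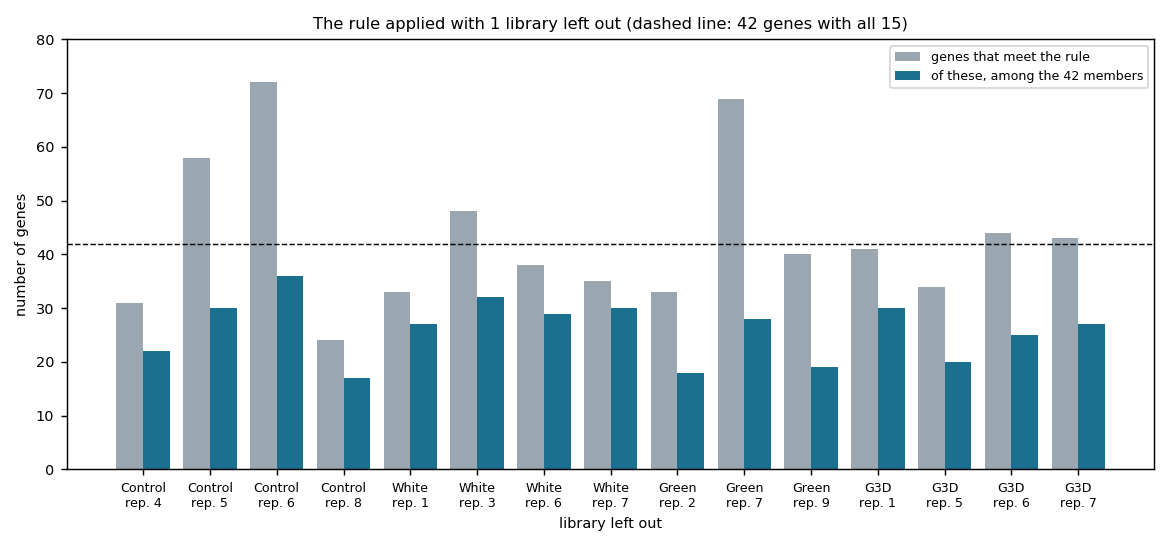
Number of genes that met the rule when each library was left out in turn, and how many of these were among the 42 (dashed line at 42). Counts run from 24 without Control replicate 8 to 72 without Control replicate 6, and 17 to 36 of the 42 were found again.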

How the data were processed

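Bulk MARS-Seq libraries of 15 hypothalami were analysed (Control 4, White 4, Green 3, G3D 4), grouped by the lighting given in their labels. The authors trimmed reads with Cutadapt, aligned them with STAR to the 3′ UTRs of chicken genes (Galgal 6.0; GRCg6a in the submitters' processing notes), removed duplicates by gene and UMI and counted with HTSeq-count. The deposited table holds raw counts that the authors did not normalize, in 15 columns of 24356 Ensembl genes. The labels give replicate numbers only, and the study's methods say that its sample number counts individual animals. No batch is given, and p-values measure only the spread between these libraries.

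The genes were chosen by the rule in the report, with a pseudocount of 1. The genes and the gene lists were chosen with earlier results of these data known. Counts were tested in R 4.3.3 with edgeR 4.0.16 (filterByExpr, 10475 genes; TMM; robust quasi-likelihood; 1 fit of 4 groups; 6 contrasts; Benjamini-Hochberg; threshold 0.05). DESeq2 1.42.0 was an alternative, and an adjusted p it gave as missing stayed missing. The code was tested on simulated data. All libraries are shown for symbols with the lowest mean difference, list members and the 3 highest mean counts. Other alternatives were DESeq2 size factors, no filter, a replicate block, other limits of the rule and each library left out. No sequence is shown, since none was matched to these genes in the reference used here. 1 gene of the lists is not reported here.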

Additional observations from a re-analysis of the deposited data

Results flagged for a closer look

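The 20 genes with a value shown for every library, 16 with a symbol and 4 without, were checked in each group of 4 libraries for 1 library far from the others. Of 60 groups, 1 stood out: PUS1 in White replicate 3, at 40.1 CPM (270 counts), where the other White libraries were at 30.4 to 31.0 CPM and the gap was 0.926 of the range. Chance gives such a gap in about 1 of 20 groups. The rest of the 42 genes were not checked in this way, among them ENSGALG00000030287, whose Control replicate 4 is described above. White replicate 3 also held the highest value of 15 libraries for 16 of the 42 genes, which were chosen for low means in Green and G3D.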

How the results depend on the processing

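A mean count minimum of 20 gave 74 genes and no limit between White and Control gave 90. Each held all 42, as a looser limit must. Settings that could lose genes moved the choice as well. A pseudocount of 5 gave 29 genes with 18 of the 42, and a pseudocount of 0.5 gave 44 with 39. TMM scaling gave 46 genes with 31 of the 42, and DESeq2's size factors gave 45 with 34. Leaving out each library gave 24 to 72 genes, with 17 to 36 of the 42 among them. Fitted log2 changes of the 16 named genes in Green and G3D against Control were negative in all 512 refits, with DESeq2's size factors or with a library left out, and 501 moved by less than their standard error. These contrasts chose the genes, which largely set the sign. Leaving out a library of a group outside the contrast could hardly move it, so these numbers are no measure of stability. Of the 42 genes, DESeq2 called 1 lower in Green against Control, beside 0.0972% of all genes, and 10 in G3D against Control, beside 1.72%. In the contrasts with White it called 4 for Green, beside 1.4%, and 13 for G3D, beside 5.98%. Testing every gene with at least 1 count gave 1 for G3D against Control, beside 0.113% of all genes, and 1 for Green against White, beside 0.227%. With each library left out, edgeR called 0 to 8 in G3D against Control, where 0.00954% to 1.71% of all genes were called lower. In G3D against White it called 0 to 17, where that share ran from 0.271% to 6.47%. All green-lit libraries were then below all others for 4 to 8 of the 42. With all 15 libraries the share over the 6564 genes was 0.564%, and it was not taken again with a library left out. Low counts, 3 or 4 chicks a group and the missing trial of each chick limit all of these values, and the causes of these shifts were not tested.

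Same-numbered libraries of different groups correlated at −0.10 to 0.12 over 8 pairs, taken over all genes tested. On the 42 genes, replicate 6 was the lowest library of Control, White and G3D, at −0.22, −0.26 and −0.23 from the group mean. It was also the shallowest library of each of these groups. Replicate 5 went opposite ways, at −0.19 in Control and 0.36 in G3D. Whether same-numbered libraries shared their handling was not tested. With a replicate block edgeR called 0 of the 42 in G3D against White, beside 0.84% of all genes. The median change of the 42 was −0.28 in Green and −0.51 in G3D against Control. In Green against Control 9 of the 42 then had a positive change, and 4 were under an unadjusted p of 0.05 in place of 29. Of all 10475 genes, 164 were lower under that p in place of 375. In G3D against Control 0 of the 42 were positive, and 11 were under an unadjusted p of 0.05 in place of 33. Of all genes, 347 were lower under that p in place of 924. Green and Control share no number, so there the block leaves the contrast to other groups. Control replicates 4 and 8, White replicate 3 and Green replicates 2 and 9 have numbers that no other library has. The block fits these libraries exactly, so they drop out. Of Green and Control only Green replicate 7, the highest of Green, and Control replicates 5 and 6, the lowest of Control, then enter. The block thus changes which libraries are compared, and nothing is read from these shifts.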
